A study of Mus musculus with 8 samples.

Results

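The glucose and fructose genes of hepatocytes were 8 genes of 31910 in the count table: Slc2a2, Gckr, Khk, Pfkl, Pfkfb1, Pklr, Pck1 and Fbp1. They were chosen by symbol, with earlier results of these data already known. All 8 had a row, and all 8 had enough counts to be among the 12358 genes tested. RNA came from mouse liver, with 4 libraries labelled for the adeno-associated viral vector AAV2/9-SA (called SA) and 4 for AAV2/9-Ctrl (called Ctrl). The labels give no diet, strain, sex or age for these 8 libraries, do not say that each is a separate mouse, and do not spell out SA, and no promoter is named for either vector. The series design names 3 diets for the study: chow, a high-fat diet with 60% fat for 24 weeks, and a diet with 42% fat and 0.2% cholesterol plus drinking water with 23.1% fructose and 18.9% sucrose for 16 weeks. Vector was injected into the tail vein after 7 weeks of feeding at 4.8e10 vector genomes per mouse. Which of these diets lies behind the 8 libraries is not stated, so no value here can be tied to the sugared water.

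As background, the liver takes up glucose and fructose from portal blood through the transporter GLUT2, the product of Slc2a2. Glucose is trapped by phosphorylation, a step that the regulatory protein encoded by Gckr holds back when sugar is scarce, while fructose is trapped by ketohexokinase and enters below the controlled step of glycolysis. Glycolysis runs through phosphofructokinase (Pfkl) and liver pyruvate kinase (Pklr), gluconeogenesis runs back through phosphoenolpyruvate carboxykinase (Pck1) and fructose-bisphosphatase (Fbp1), and the bifunctional enzyme encoded by Pfkfb1 sets the level of fructose 2,6-bisphosphate, which pushes the balance one way or the other. Carbohydrate acts on transcription through ChREBP (Mlxipl), and glucagon acts through cAMP.

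The start-site sequences of 4 of the genes are shown because 2 of them, Pklr and Pck1, had the largest fold changes in the 2 directions, and the other 2, Khk and Gckr, were highest in the same library and lowest in the same library. RefSeq windows on GRCm38.p6, from 250 bases before to 50 bases after a start, were matched for all 8 genes, 12 windows in all. They were searched on both strands for 3 motifs: the carbohydrate response element, a pair of E-box-like hexamers with 5 bases between them, the E-box CACGTG, which can form part of the first, and the cAMP response element TTACGTCA. Capitals mark the match, and each line runs 5′ to 3′ on the gene's own strand.
Pklr (the downstream of its 2 windows, chr3:89136373-89136672, + strand): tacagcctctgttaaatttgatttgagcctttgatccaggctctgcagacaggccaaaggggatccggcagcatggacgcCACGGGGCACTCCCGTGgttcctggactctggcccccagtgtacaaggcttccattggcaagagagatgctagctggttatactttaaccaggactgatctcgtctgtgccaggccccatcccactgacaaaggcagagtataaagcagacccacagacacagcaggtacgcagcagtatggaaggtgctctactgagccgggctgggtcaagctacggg
Khk (chr5:30921309-30921608, + strand): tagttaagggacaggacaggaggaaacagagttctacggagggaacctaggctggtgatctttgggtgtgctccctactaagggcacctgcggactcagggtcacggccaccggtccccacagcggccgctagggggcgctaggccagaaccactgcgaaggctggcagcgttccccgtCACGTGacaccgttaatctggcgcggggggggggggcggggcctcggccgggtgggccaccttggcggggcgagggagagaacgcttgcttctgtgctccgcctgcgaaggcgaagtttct
Gckr (chr5:31297313-31297612, + strand): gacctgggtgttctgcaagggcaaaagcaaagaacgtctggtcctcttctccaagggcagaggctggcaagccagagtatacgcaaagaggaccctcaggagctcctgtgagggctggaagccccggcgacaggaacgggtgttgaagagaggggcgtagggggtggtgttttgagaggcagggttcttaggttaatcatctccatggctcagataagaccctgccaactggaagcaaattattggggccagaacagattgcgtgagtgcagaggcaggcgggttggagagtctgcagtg
Pck1 (chr2:173152823-173153122, + strand): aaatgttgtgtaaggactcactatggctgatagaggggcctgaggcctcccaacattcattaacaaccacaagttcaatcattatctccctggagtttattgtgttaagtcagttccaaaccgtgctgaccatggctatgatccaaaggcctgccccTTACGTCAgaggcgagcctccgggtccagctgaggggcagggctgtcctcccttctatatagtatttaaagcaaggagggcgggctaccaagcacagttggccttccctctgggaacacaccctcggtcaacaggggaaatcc
In the Pklr window the carbohydrate response element, in the letters searched, began 170 bases before the start. Those letters were present in 0.0457% of all 32851 windows. The Khk window had an E-box beginning 71 bases before the start, a motif held by 7.15% of windows. The Pck1 window had the TTACGTCA form of the cAMP response element, beginning 93 bases before the start, against 0.499% of windows. The other 9 windows of the 8 genes, that of Gckr among them, held none of these letters. Other forms of the motifs were not searched, so a window without a match may still hold one. Whether the letters were chosen apart from these genes is not stated, so the shares of windows are no test. These matches describe the sequence only, since no binding was measured.

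The libraries held 14114145 to 28184001 counts in SA and 14359368 to 15328093 in Ctrl, the deepest being SA 4. Levels are given as CPM, counts of tested genes scaled to a common library size by TMM. Ctrl 4 had 9.23% of its counts on mitochondrially encoded genes, while no other library had less than 3.55% or more than 4.87%. The summed level of 8 hepatocyte markers was 55926 to 82307 CPM in SA and 65011 to 89564 CPM in Ctrl. Most of this sum was Alb, at 42728 to 66642 CPM in SA and 47989 to 76455 CPM in Ctrl, and 1 of the 8, Hpd, had no count in any library. Markers of kidney tubule and small intestine, which also use several of the 8 genes, were near 0. Those of kidney summed to 1.34 to 4.56 CPM in SA and 0.341 to 2.83 CPM in Ctrl, with Umod, Slc34a1, Slc12a1 and Slc22a6 at 0 in every library. Those of intestine summed to 0 in SA and at most 0.0603 CPM in Ctrl, with Fabp2, Sis and Alpi at 0. Such zeros do not show absence, since 245 of 4500 genes with a mean of at least 10 FPKM had no count in any library.

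None of the 8 genes passed a test between SA and Ctrl livers, and the ranges of SA and Ctrl overlapped for each. With the quasi-likelihood test of edgeR 0 of 8 passed at an adjusted p under 0.05, where 0.0162% of all tested genes did, and 0 had an unadjusted p under 0.05, where 6.21% of all did, 2.91% higher and 3.29% lower in SA. DESeq2, which called 0.346% of its genes, called 0 of the 8, and limma on the FPKM table, which called 0.0324%, called 0 of the 7 listed there. At an unadjusted p under 0.05 limma had 0 of the 7 as well, against 3.52% of its genes. Ranges that did not overlap were found for 3.12% of tested genes, 1.66% with SA higher and 1.46% with SA lower. Log2 fold changes of SA over Ctrl ran from -0.17 for Pklr to 0.23 for Pck1, with a median of -0.08 against -0.01 over all tested genes. Of the 8 values 6 were negative and 2 positive, where 6344 of all 12358 tested genes were negative and 6014 positive. In the count table the 95% intervals bound the change in counts. For Slc2a2, the least precise, SA was 0.530 to 1.93 times Ctrl. The intervals of the other 7 genes lay between 0.643 and 1.54 times. A 2-fold difference in either direction thus lay outside all 8 of these intervals. They do not bound the FPKM values, where Pfkfb1 had a log2 fold change of -2.08 ± 1.34 (SE, limma on log2(FPKM + 1)). The counts of Slc2a2 were also few for its FPKM, with 38.6 FPKM per CPM against a median of 0.398. In whole liver, fewer hepatocytes and less RNA per hepatocyte cannot be told apart.

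**Figure D1:**
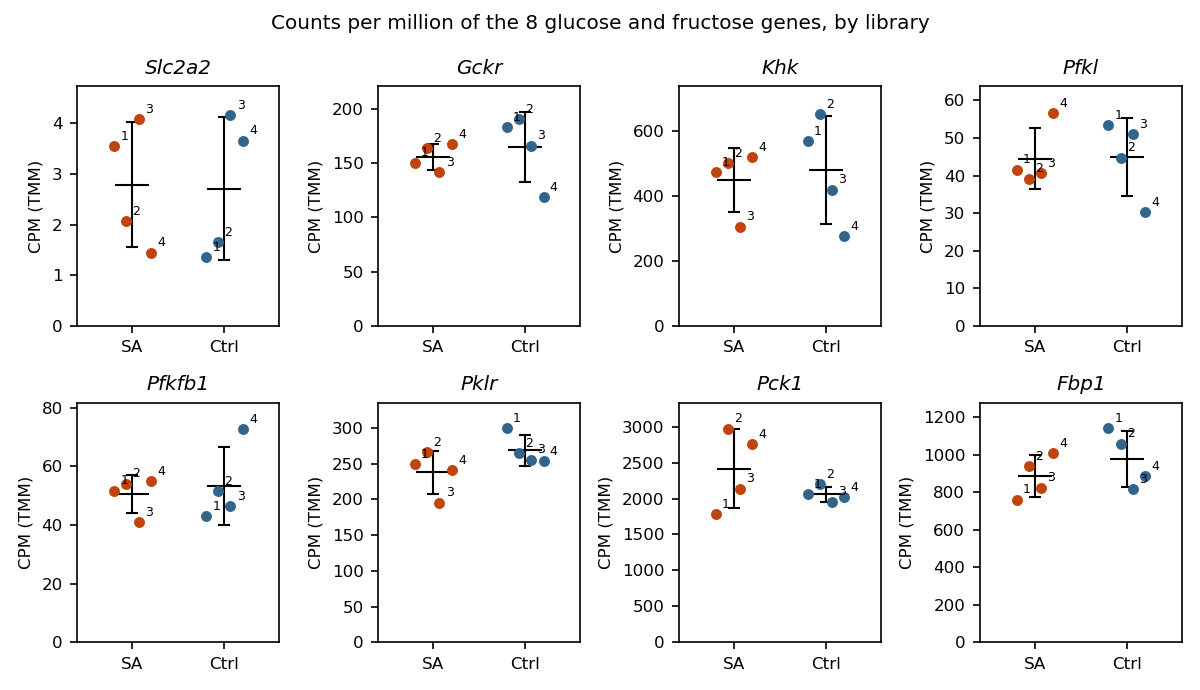
TMM-normalized CPM (y axes, from 0) of the 8 genes in the 4 SA (red) and 4 Ctrl (blue) libraries; points are libraries with their numbers, bars are mean ± SD. The groups overlap in every panel, Pck1 is more spread in SA (1788 to 2972 CPM) than in Ctrl (1956 to 2203 CPM), and Ctrl 4 is lowest for Gckr, Khk and Pfkl.

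Glucose entry came first. Slc2a2, the GLUT2 transporter gene, had 3.55, 2.06, 4.08 and 1.45 CPM in SA 1 to 4, against 1.36, 1.65, 4.16 and 3.66 CPM in Ctrl 1 to 4. Each group held high and low libraries, with SA 3 and Ctrl 3 at about the same height, and the log2 fold change was 0.02 ± 0.43 (SE; adjusted p = 0.997 in edgeR). These levels rest on only 20 to 69 counts per library, for which counting alone gives a coefficient of variation of 22.4% at the low end and 12.0% at the high end. The fold change turned to -0.22 without SA 3 and to 0.31 without Ctrl 3, so its sign was set by single libraries.

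Gckr, whose product restrains glucose phosphorylation, was steadier in SA. It had 150, 164, 142 and 167 CPM in SA 1 to 4, against 183, 191, 166 and 119 CPM in Ctrl 1 to 4. The SA libraries all lay inside the Ctrl range, which was wide because of Ctrl 4. Means were 155.9 ± 11.9 CPM in SA and 164.6 ± 32.4 CPM in Ctrl (SD, n = 4 each), a log2 fold change of -0.08 ± 0.16 (SE; adjusted p = 0.996 in edgeR). It was -0.21 without Ctrl 4 and 0.0044 without Ctrl 2.

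Khk, which encodes ketohexokinase and opens fructose breakdown, had 474, 501, 306 and 520 CPM in SA 1 to 4, against 570, 653, 420 and 277 CPM in Ctrl 1 to 4. Both the highest and the lowest library were Ctrl, and the means of 450.2 ± 98.2 CPM in SA and 480.2 ± 166.0 CPM in Ctrl (SD, n = 4 each) differed by less than either SD. The log2 fold change was -0.09 ± 0.25 (SE; adjusted p = 0.996 in edgeR), at 0.055 without SA 3, -0.29 without Ctrl 4 and 0.10 without Ctrl 2. Further along the route, Tkfc, the triokinase that phosphorylates the glyceraldehyde, was at 138 ± 14.4 CPM in SA and 134 ± 28.1 CPM in Ctrl (SD, n = 4 each), a log2 fold change of 0.04 ± 0.17 (SE; adjusted p = 0.996 in edgeR).

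Fructose transporters outside GLUT2 did not pass either. Slc2a5, the fructose transporter GLUT5 best known from the intestine, was at 15.9 ± 2.95 CPM in SA and 16.9 ± 4.025 CPM in Ctrl, and Slc2a8 was at 19.7 ± 3.40 CPM in SA and 16.2 ± 2.09 CPM in Ctrl (SD, n = 4 each). Slc2a8 had the smallest p of the fructose list, with a log2 fold change of 0.28 (adjusted p = 0.942 in edgeR). Aldh2, a mitochondrial aldehyde dehydrogenase, had the third smallest, at 2469 ± 395 CPM in SA and 2354 ± 752 CPM in Ctrl (SD, n = 4 each), a log2 fold change of 0.07 ± 0.24 (SE; adjusted p = 0.996 in edgeR). It was -0.04 without SA 4 and -0.14 without Ctrl 4. Of the 6 genes listed for fructose handling 5 were tested, 4 positive and 1 negative, with a median of 0.04.

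Among the glycolytic genes, Pfkl, the liver phosphofructokinase, had 41.6, 39.2, 40.6 and 56.7 CPM in SA 1 to 4, against 53.4, 44.7, 51.0 and 30.3 CPM in Ctrl 1 to 4. SA 4 stood above the other 3 SA libraries and Ctrl 4 below the other 3 Ctrl libraries, and the log2 fold change was -0.01 ± 0.19 (SE; adjusted p = 0.996 in edgeR). It was -0.16 without either SA 4 or Ctrl 4 and 0.08 without Ctrl 1. Pfkfb1, the liver form of the enzyme that makes and breaks fructose 2,6-bisphosphate, had 51.7, 54.1, 40.9 and 54.8 CPM in SA 1 to 4, against 43.0, 51.4, 46.3 and 72.7 CPM in Ctrl 1 to 4. Here Ctrl 4 was the highest library, opposite to Pfkl. The log2 fold change was -0.08 ± 0.18 (SE; adjusted p = 0.996 in edgeR), at 0.0078 without SA 3 and 0.10 without Ctrl 4. In GENCODE M21 (GRCm38) 123 exonic bases of Pfkfb1, or 3.06%, are shared with Apex2 on the opposite strand, and no source used here gives the strand setting of the counting.

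Pklr, which encodes liver pyruvate kinase, the last step of glycolysis, had 249, 267, 196 and 241 CPM in SA 1 to 4, against 300, 265, 256 and 254 CPM in Ctrl 1 to 4. Of the 4 SA libraries 3 were below all Ctrl libraries, and SA 2 lay between Ctrl 1 and Ctrl 2. Means were 237.9 ± 30.3 CPM in SA and 268.6 ± 21.4 CPM in Ctrl (SD, n = 4 each), a log2 fold change of -0.17 ± 0.14 (SE; adjusted p = 0.989 in edgeR). It was the lowest fold change of the 8 and did not pass, but it was negative under every alternative that could be run, from -0.23 to -0.09. Of the exonic bases of Pklr 22.0% are shared with Hcn3 on the other strand, whose own row held 138 to 454 counts per library, so part of the Pklr count is uncertain.

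In gluconeogenesis, Pck1, whose product makes phosphoenolpyruvate, had 1788, 2972, 2137 and 2754 CPM in SA 1 to 4, against 2063, 2203, 1956 and 2016 CPM in Ctrl 1 to 4. SA 2 and SA 4 were above all Ctrl libraries, SA 1 was below them all, and SA 3 lay among them. Means were 2413 ± 546 CPM in SA and 2059 ± 105 CPM in Ctrl (SD, n = 4 each), coefficients of variation of 22.6% in SA and 5.12% in Ctrl, a difference in spread that was not tested. The log2 fold change was 0.23 ± 0.18 (SE; adjusted p = 0.989 in edgeR), the highest of the 8, and was positive under every alternative, from 0.11 to 0.35.

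Fbp1, fructose-bisphosphatase, had 762, 941, 825 and 1010.5 CPM in SA 1 to 4, against 1143, 1059, 818 and 887 CPM in Ctrl 1 to 4. The ranges ran side by side, with Ctrl 1 and Ctrl 2 above all SA libraries and SA 1 below all Ctrl libraries. Its log2 fold change was -0.14 ± 0.16 (SE; adjusted p = 0.996 in edgeR). G6pc, the glucose 6-phosphatase that ends the pathway, had 111 CPM in SA 1, the library in which Pck1 and Fbp1 were also lowest. SA 2 to 4 had 351, 411 and 546 CPM, against 398, 386, 382 and 288 CPM in Ctrl 1 to 4. Its log2 fold change was -0.04 ± 0.34 (SE; adjusted p = 0.996 in edgeR), and 0.26 without SA 1.

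**Figure D2:**
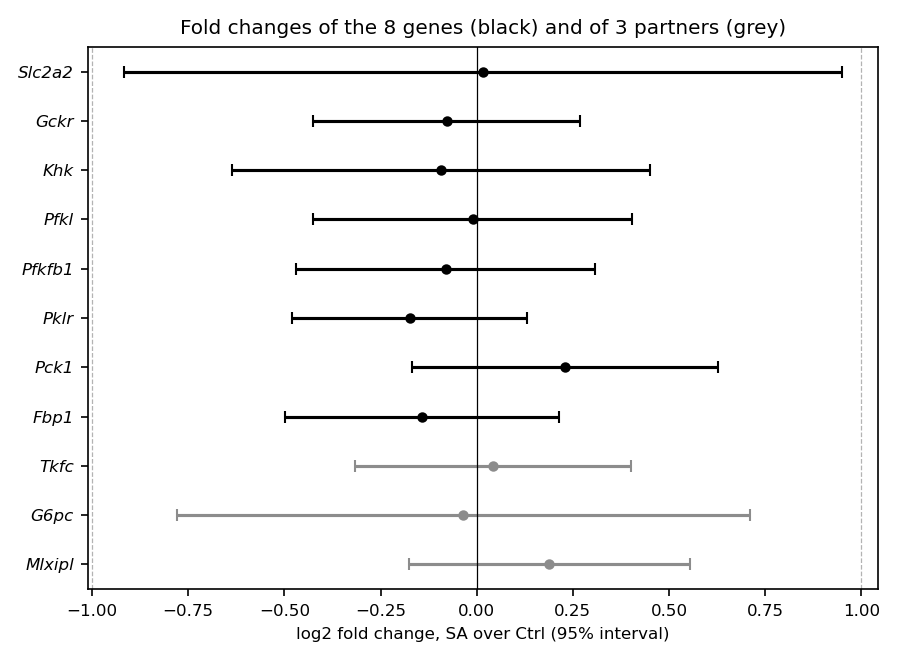
Log2 fold change of SA over Ctrl (x axis) with its 95% interval from the edgeR fit for the 8 genes (black) and for Tkfc, G6pc and Mlxipl (grey); dashed lines mark 2-fold. Every interval contains 0 and none reaches 2-fold, the widest being that of Slc2a2, which rests on 20 to 69 counts per library.

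Opposing enzymes were also set against each other. The log2 ratio of Pklr to Pck1 counts was -2.84, -3.48, -3.45 and -3.52 in SA 1 to 4, against -2.78, -3.06, -2.93 and -2.99 in Ctrl 1 to 4. In SA 2, 3 and 4 the ratio was below all 4 Ctrl libraries, and in SA 1 it lay between Ctrl 1 and Ctrl 3. The mean log2 ratio was -3.32 ± 0.32 in SA and -2.94 ± 0.12 in Ctrl (SD, n = 4 each), a description with no test, since Pklr and Pck1 were paired with their direction in these data already known. For Pfkl over Fbp1 it was -4.32 ± 0.20 in SA and -4.47 ± 0.36 in Ctrl (SD, n = 4 each), a smaller gap than the spread in Ctrl.

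Across libraries the 8 genes did not shift as a block. Gckr, Khk and Pfkl were lowest in Ctrl 4, by 0.42, 0.69 and 0.53 below their own means on the log2 CPM scale. Pfkfb1 was highest in that same library, by 0.51, and Pklr was at its mean there, with a deviation of 0.01. Ctrl 4 is also the library with the high mitochondrial share, whose part in these values was not tested. Khk and Gckr were both highest in Ctrl 2. SA 3 had 7 of the 8 genes below their means, with a median deviation of -0.16, and Ctrl 1 had the highest median deviation, 0.23. The Slc2a2 counts followed another order, high in SA 1, SA 3, Ctrl 3 and Ctrl 4 and low in the other 4 libraries.

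**Figure D3:**
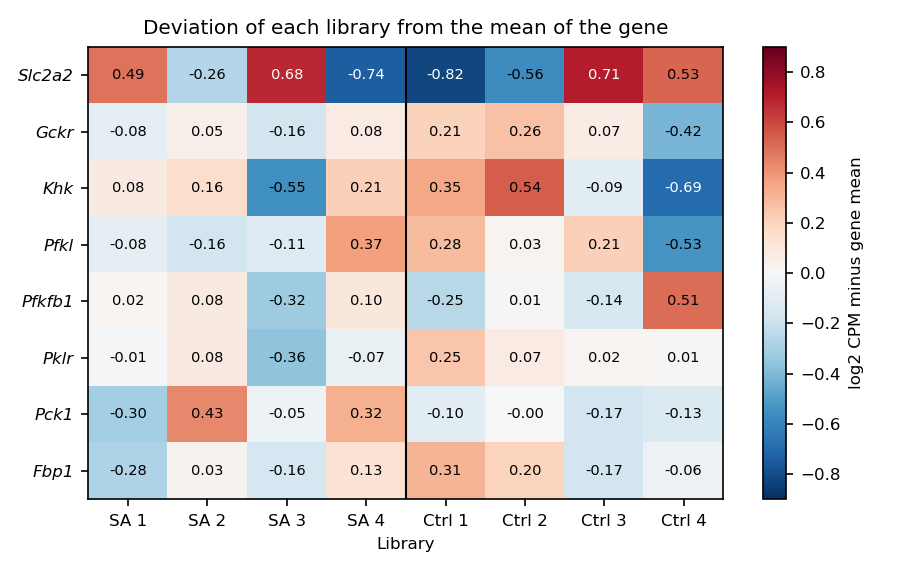
Log2 CPM of each library minus the mean of the gene over the 8 libraries (colour and printed value) for the 8 genes, SA libraries left of the line and Ctrl libraries right of it. Gckr, Khk and Pfkl are lowest in Ctrl 4, where Pfkfb1 is highest, and SA 3 is below the mean for all rows but Slc2a2.

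The deposited FPKM table, which holds levels per length, gave another picture of 2 of the 8 genes. Slc2a2 was at 102, 86.6, 94.97 and 102 FPKM in SA 1 to 4, against 114, 103, 97.8 and 149 FPKM in Ctrl 1 to 4, an abundant transcript in every library. Its FPKM was 38.6 times its CPM on average, the 21st highest ratio of 7940 genes in both tables, where the median gene had 0.398. For Gckr, Khk, Pfkl, Pck1 and Fbp1 that ratio was 0.373 to 0.887. In the FPKM table Slc2a2 had a log2 fold change of -0.25 ± 0.17 (SE, on the log2(FPKM + 1) scale; limma, adjusted p = 0.999), with SA 1 and SA 4 inside the Ctrl range and SA 2 and SA 3 below it. In GENCODE M21 no exonic base of Slc2a2 is shared with another gene.

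Pfkfb1 split into 2 levels in the FPKM table and not in the counts. It was at 0.392, 1.28, 0.5003 and 31.9 FPKM in SA 1 to 4, against 27.6, 0.452, 33.0 and 34.2 FPKM in Ctrl 1 to 4. SA 1, SA 2, SA 3 and Ctrl 2 were thus near 1 FPKM or below. In CPM, SA 1, SA 2 and Ctrl 2 lay among the other libraries, and SA 3 was the lowest, at 40.9 CPM beside 43.0 CPM in Ctrl 1. The fold change this gave, a log2 value of -2.08 ± 1.34 (SE, on the log2(FPKM + 1) scale; limma, adjusted p = 0.999), rests on which libraries fell to the low level. Mlxipl, the ChREBP gene, split likewise, with 0.861 and 0.357 FPKM in SA 1 and SA 2 and 24.1 to 41.0 FPKM in the other 6 libraries, although its counts were even, at 229 ± 35.6 CPM in SA and 201 ± 36.9 CPM in Ctrl (SD, n = 4 each). Tkfc ranged from 0.518 to 40.1 FPKM against 99.5 to 168 CPM. Pklr had no row in the FPKM table.

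The FPKM scale, being per length, gives the order of the levels, here without Pfkfb1 and Pklr and for Slc2a2 against its low counts. Whether a value stands for all transcripts of a gene is not stated, so the order holds for the listed values only. The mean over the 8 libraries was 1059 FPKM for Pck1, 826 for Fbp1, 375 for Khk, 106 for Slc2a2, 78.2 for Gckr and 16.7 for Pfkl. Pck1, at 867 to 1521 FPKM, overlapped Fbp1, at 639 to 1070 FPKM, and Slc2a2 overlapped Gckr, at 50.9 to 99.9 FPKM. Khk, at 189 to 491 FPKM, and Pfkl, at 9.44 to 22.2 FPKM, overlapped neither neighbour.

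**Figure D4:**
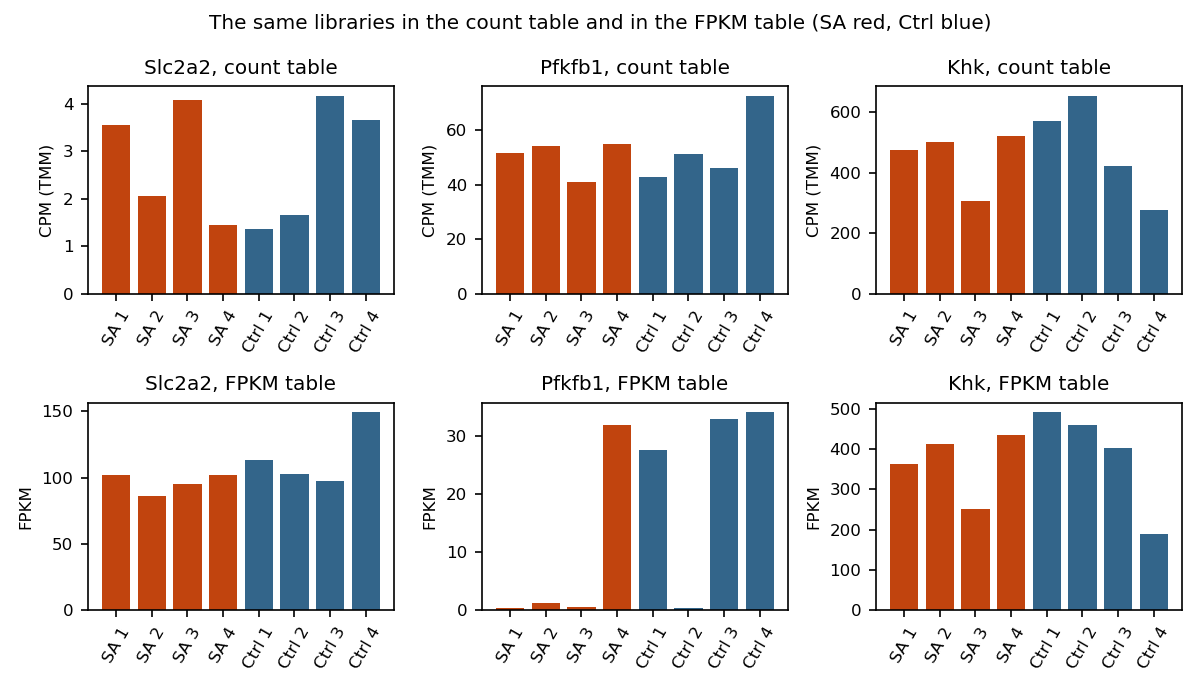
Levels of Slc2a2, Pfkfb1 and Khk in each library, in TMM-normalized CPM (upper row) and in the deposited FPKM (lower row), SA in red and Ctrl in blue, all axes from 0. Khk is lowest in Ctrl 4 in both tables and its deviations differ between them by at most 0.25 on the log2 scale, Slc2a2 is below 5 CPM but above 86 FPKM throughout, and Pfkfb1 falls to 1.28 FPKM or less in SA 1, SA 2, SA 3 and Ctrl 2 only in the FPKM table.

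The rest of the pathway was described from 8 lists with 92 genes outside the 8, of which 87 were tested. None passed with edgeR at an adjusted p under 0.05, and 8 had an unadjusted p under 0.05, 3 higher and 5 lower in SA, where 6.21% of all tested genes did. DESeq2 called 1, Got1, and limma on FPKM 0 of the 72 listed there. The median log2 fold change of the 87 genes was -0.03, with 36 positive and 51 negative. Over all 12358 tested genes, 6014 were positive and 6344 negative. No list was tested as a set. In CPM the groups did not overlap for 2 of the 87 genes with SA higher and 2 with SA lower, where 3.12% of all tested genes did not overlap. Of the 5 untested genes, G6pdx, Glyctk and Txnip had no count in any of the 8 libraries. Txnip, a glucose-responsive gene, and Glyctk, glycerate kinase, were in the FPKM table all the same, at 37.2 to 67.3 FPKM in SA and 29.4 to 68.5 FPKM in Ctrl for Txnip and at 13.3 to 36.2 FPKM in SA and 1.55 to 37.0 FPKM in Ctrl for Glyctk. These values were looked up after the zero counts had been seen. Of 4500 genes with a mean of at least 10 FPKM, 245 had no count in any library, so a 0 in the count table does not show that a gene was silent.

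Got1, the cytosolic aspartate aminotransferase that carries carbon between mitochondria and cytosol during gluconeogenesis, was the clearest of these genes. It had 85.2, 110, 78.4 and 99.3 CPM in SA 1 to 4, against 146, 138, 137 and 148 CPM in Ctrl 1 to 4. The groups did not overlap, as for the 1.46% of tested genes that were lower in SA without overlap. Means were 93.1 ± 14.0 CPM in SA and 142 ± 5.46 CPM in Ctrl (SD, n = 4 each), a log2 fold change of -0.61 ± 0.14 (SE; adjusted p = 0.342 in edgeR and 0.0204 in DESeq2). In FPKM it was at 50.5 to 68.4 in SA and 76.2 to 104 in Ctrl, again without overlap. Over the alternatives its adjusted p ranged from 0.0204 to 0.999. The mitochondrial partner Got2 had -0.15 and Pck2, the mitochondrial carboxykinase, -0.21. Of the 8 gluconeogenesis genes outside the 8 members, 7 were negative, with a median of -0.15.

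Hnf4a, a transcription factor of hepatocyte identity that also acts on gluconeogenic genes, led the 20 tested regulators. It had 528, 812, 674 and 720 CPM in SA 1 to 4, against 412, 399, 527 and 454 CPM in Ctrl 1 to 4. The groups did not overlap, as for the 1.66% of tested genes that were higher in SA without overlap, though SA 1 lay only just above Ctrl 3. The log2 fold change was 0.61 ± 0.17 (SE; adjusted p = 0.425 in edgeR). In FPKM the groups overlapped, at 112 to 219 in SA and 67.1 to 132 in Ctrl. Crtc2, a coactivator of the glucagon response, was at 32.4 to 38.5 CPM in SA and 27.3 to 29.5 CPM in Ctrl, also without overlap. Its log2 fold change was 0.33 ± 0.13 (SE; adjusted p = 0.697 in edgeR). Srebf1 had -0.42 and Mlxipl 0.19, with overlapping groups for both genes. Among the regulators 14 were positive and 6 negative, with a median of 0.09.

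Glycogen genes went both ways. Ppp1r3b, which brings the phosphatase to glycogen and favours synthesis, was at 344 ± 91.5 CPM in SA and 235 ± 55.7 CPM in Ctrl, a log2 fold change of 0.55 ± 0.22 (SE; adjusted p = 0.722 in edgeR). Gbe1, the branching enzyme, was at 194 ± 29.1 CPM in SA and 261 ± 45.3 CPM in Ctrl, a log2 fold change of -0.43 ± 0.16 (SE; adjusted p = 0.698 in edgeR; SD, n = 4 each for both genes). For Ppp1r3b it was 0.36 without SA 4, and 0.05 in the FPKM table on the log2(FPKM + 1) scale. Its FPKM values were low beside its counts, at 3.81 to 17.6 FPKM in SA and 5.72 to 14.6 FPKM in Ctrl. Ugp2, which makes UDP-glucose, had -0.42. Of the 13 glycogen genes 5 were positive and 8 negative, with a median of -0.06. In the pentose phosphate list the smallest p values belonged to Rpia (-0.39), Pgd (-0.27) and H6pd (0.28), and 6 of 7 tested genes were negative, with a median of -0.09. In the list for pyruvate entry into mitochondria they belonged to Pdk4 (-0.29), Dld (-0.18) and Pdp2 (0.17), with 9 of 12 negative and a median of -0.06. Of the 7 further glycolysis genes 4 were negative, with a median of -0.02, among them Eno1 (-0.21), Gapdh (-0.20) and Gpi1 (-0.10). Gapdh has many processed copies in the mouse genome, so its count is uncertain.

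The isozymes of other tissues had a median of -0.10, with 10 of 15 tested genes negative. Slc2a4, the insulin-responsive GLUT4 of fat and muscle, was near the floor, at 0.671, 0.5005, 0.415 and 1.48 CPM in SA 1 to 4, against 1.64, 2.55, 1.93 and 1.44 CPM in Ctrl 1 to 4, a log2 fold change of -1.22 ± 0.43 (SE; adjusted p = 0.595 in edgeR). SA 4 was above Ctrl 4, so the groups overlapped, and without SA 4 the log2 fold change was -1.83. Hk1, a hexokinase of most tissues outside hepatocytes, was at 5.05 to 6.83 CPM in SA and 7.54 to 9.90 CPM in Ctrl. Its groups did not overlap, as for the 1.46% of tested genes that were lower in SA without overlap. Hk1 had -0.53 ± 0.19 (SE; adjusted p = 0.634 in edgeR). Pkm, the pyruvate kinase of other tissues, had -0.47 ± 0.20 (SE; adjusted p = 0.782 in edgeR). Sums of markers of other cell types stand beside these values. The 5 bile duct markers summed to 37.1 to 66.0 CPM in SA and 34.7 to 133 CPM in Ctrl, with 1 of 5 positive. The 8 endothelial and stellate markers, of which Lrat was at 0, summed to 257 to 349 CPM in SA and 318 to 600 CPM in Ctrl, with 1 of 6 tested positive. The 5 adipocyte markers, of which Lep was at 0, summed to 10.7 to 46.1 CPM in SA and 45.9 to 119 CPM in Ctrl, but this sum was almost all Cfd, the only 1 of the 5 with enough counts to be tested. For 3 further lists the median log2 fold change was above 0. It was 0.005 for leukocytes and macrophages, 0.46 for red blood cells and 0.37 for skeletal muscle. The kidney tubule list, given above, had 0.85, and for it and for skeletal muscle only 1 gene was tested. The 8 leukocyte and macrophage markers summed to 299 to 410 CPM in SA and 257 to 430 CPM in Ctrl, with 4 of 7 tested positive. The 5 red blood cell markers, of which Alas2 was at 0, summed to 44.3 to 193 CPM in SA and 27.0 to 150 CPM in Ctrl, with 4 of 4 tested positive. The 5 skeletal muscle markers, of which Ckm and Myh4 were at 0, summed to 0.542 to 0.938 CPM in SA and 0.0718 to 1.03 CPM in Ctrl. The part of these cell types in the isozyme values was not tested.

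**Figure D5:**
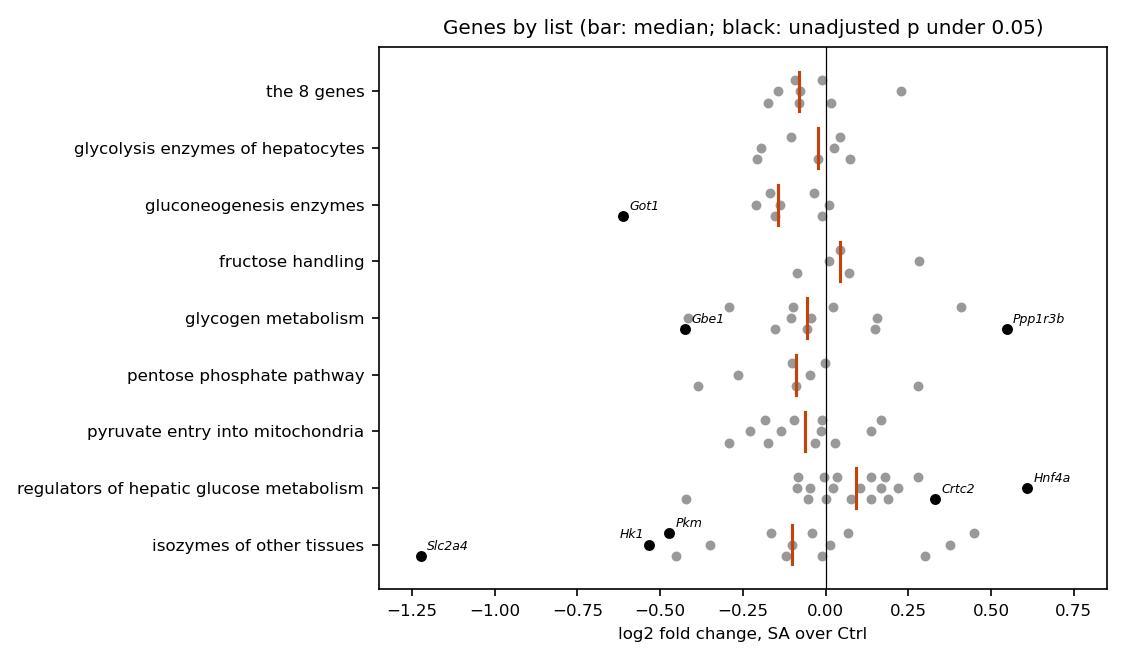
Log2 fold change of SA over Ctrl (x axis) for each tested gene of the 8 glucose and fructose genes and of the 8 further lists (rows); the red bar is the list median and black points had an unadjusted p under 0.05 in edgeR. The medians lie between -0.15 and 0.09, and the genes farthest from 0 are Slc2a4, Got1 and Hnf4a, none past the adjusted threshold in edgeR.

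Zonation markers give the liver's own axis, since gluconeogenesis is strongest near the portal vein and glycolysis near the central vein. The 10 periportal markers summed to 7349 to 8282 CPM in SA and 6684 to 8526 CPM in Ctrl, with a median log2 fold change of 0.09. The 10 pericentral markers, of which Oat had no count, summed to 9950 to 12105 CPM in SA and 9548 to 15157 CPM in Ctrl, with a median of 0.03 over 8 tested. Both ranges in SA lay within those in Ctrl. Most of the pericentral sum was Cyp2e1, at 7812 to 9719 CPM in SA and 7620 to 12645 CPM in Ctrl.

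The genes most like Pck1 over the 8 libraries, by root mean square difference of log2 CPM deviations among 11845 genes with at least 1 CPM, were Acsm5 (0.066), Entpd5 (0.092) and Glt1d1 (0.099). The deviations of Pck1 itself had a root mean square of 0.23. For Pklr, with 0.16, they were Slc1a4 (0.064), Stx18 (0.067) and Pes1 (0.073). These are the closest of many candidates and describe these libraries only.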

How the data were processed

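Total RNA of frozen mouse liver was sequenced in 8 libraries. The authors deposited a table of raw counts per gene symbol and a table of FPKM values (fragments scaled by transcript length and library size) with 9265 rows, all above 0 in every library, of which 8638 matched a symbol of the count table without regard to case. Per the submitters' processing notes, the tools included StringTie 2.2.1, HISAT2 and FastQC 0.19.7. The notes name mm10 as well as GRCm39 and do not say which table used which build. The counting program, its strand setting and its annotation are not given in the sources used here.

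Samples were grouped by title. Counts were tested over the whole table in edgeR 4.0.16 (R 4.3.3), by its quasi-likelihood test, after filterByExpr and TMM scaling, SA against Ctrl, 4 libraries each, with no block, and p-values were adjusted by Benjamini-Hochberg over 12358 genes. The standard error is the absolute log2 fold change over the square root of F. The fit was tested on simulated counts. FPKM values were tested with limma 3.58.1 on log2(value + 1) where at least 4 libraries reached 0.5, a scale that understates the change of low genes. The labels do not state that the samples are separate animals, so the spread behind the p-values may be technical. No 2 libraries of a group agreed within sampling noise.

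The 8 genes and the lists were chosen with earlier results of these data known. Named genes are the 8, the 3 with the smallest p in each list, and G6pc, Tkfc and Mlxipl. Some items are not reported here, and the lists are counted without them. Alternatives were DESeq2 1.42.0, RLE factors, all genes kept, genes kept only where 4 libraries reached 1 CPM, limma on FPKM with a pseudocount of 1 or 0.1 and without its filter, a fit blocked on replicate number, and 8 fits each lacking 1 library. Promoter windows come from RefSeq and gene overlaps from GENCODE M21, both on GRCm38, whether or not the counts used that build.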

Additional observations from a re-analysis of the deposited data

Results flagged for a closer look

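Dixon's criterion, which chance meets in about 1 of 20 groups, marked 5 of the 84 groups of 4 libraries screened for the 8 genes and the other named genes, each for 1 library far from its 3 companions, a number close to what chance gives. For Pfkl this was SA 4, at 56.7 CPM beside 39.2 to 41.6 CPM in SA 1 to 3. The FPKM of Pfkl gave the same library, 21.5 beside 14.3 to 15.5. Pfkfb1 reached 31.9 FPKM in SA 4 beside 0.392 to 1.28 FPKM in SA 1 to 3. For Eno1, enolase, Ctrl 1 had 698.5 CPM beside 603 to 619 CPM in Ctrl 2 to 4. For G6pc, Ctrl 4 had 288.2 CPM beside 382 to 398 CPM in Ctrl 1 to 3.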

How the results depend on the processing

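Of the 8 genes, Pklr and Fbp1 stayed negative and Pck1 positive under every alternative run for them, which for Pklr left out the FPKM table, and no gene of the 8 passed under any. On the FPKM table Slc2a2 reversed to -0.25 with either pseudocount or without the filter and Pfkl to 0.024 (0.029 with a pseudocount of 0.1). Leaving out 1 library at a time gave log2 fold changes of -0.22 to 0.31 for Slc2a2, -0.21 to 0.0044 for Gckr, -0.29 to 0.10 for Khk, -0.16 to 0.078 for Pfkl and -0.18 to 0.10 for Pfkfb1, and of -0.33 to 0.26 for G6pc, -0.22 to 0.074 for Slc2a5, -0.14 to 0.23 for Aldh2 and -0.082 to 0.17 for Tkfc. On FPKM Mlxipl reversed to -2.24 (-2.86 with a pseudocount of 0.1), Pck2 to 0.0035 (with a pseudocount of 0.1 only) and Pgd to 0.0055 (0.014 with a pseudocount of 0.1), the fructose list median was 0.31 (0.33 with a pseudocount of 0.1) and that of the isozymes -0.40 with a pseudocount of 0.1. The cause was not tested. The number of genes called was 2, but 60 with DESeq2, 8 without a low-count filter, 6 with the replicate block and 0 to 19 without 1 library (19 without SA 1, 1 without SA 2, SA 3, SA 4 or Ctrl 1, 0 without Ctrl 4). An unadjusted p under 0.05 in edgeR was met by 767 genes in the main fit. Without 1 library it was met by 543 (Ctrl 1 left out) to 1272 genes (Ctrl 4 left out). Same-numbered libraries deviated with correlations of -0.22 to 0.22, so the numbers were not taken as pairs, and no gene of the 8 passed with the block. Depth bears most on Slc2a2, at 20 to 69 counts per library.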
